A study of Bos taurus with 12 samples.

Results

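The proteasome subunits and the ubiquitin-conjugating enzymes of bovine endometrium were described from 79 probe sets, out of 24016 on the array that were not controls. They are all the probe sets whose gene symbol in the platform annotation starts with PSMA, PSMB, PSMC, PSMD, PSME, PSMF, PSMG or UBE2. The symbol starts gave 46 probe sets for 40 proteasome genes and 33 probe sets for 26 genes of the UBE2 family. The rule reads the symbol alone. One of the 40 proteasome genes, PSME3IP1, entered by this rule and is not itself a subunit. All 79 symbols were the same in RefSeq for the gene ID of the probe set. Of the 66 genes, 53 had 1 probe set and 13 had 2. The level of the members ran from 3.87 to 12.09 on the log2 scale over the 12 arrays, and none was listed at 0.

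The arrays measured RNA of endometrium that was brushed from the uterus of cyclic Simmental heifers. It was taken on day 3 (HR3, LR3) and day 7 (HR7, LR7) of the estrous cycle. The paper calls the study longitudinal, so the same heifers may have been brushed on both days. Which heifers entered which pool is not given in the sources used here, and the main test treated the pools as independent. Day 7 tissue may thus have been brushed before, and the part of this in the day changes was not tested. An embryo produced in vitro was transferred in the following cycle, and the samples were grouped afterwards by the outcome. The receptive groups (HR3 and HR7) came from heifers that became pregnant, and the non receptive groups (LR3 and LR7) from heifers in which no embryo was found. Each of the 4 groups had 3 arrays, and every array carried RNA pooled from several heifers, so that the p values measure only the spread between pools, which understates that between animals. None of the heifers was pregnant or carried an embryo when brushed. A brush collects mainly the surface of the uterine lining, together with blood and immune cells. In such bulk RNA, fewer cells of a type and less RNA per cell cannot be told apart.

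Proteins are marked for destruction by a chain of ubiquitin, a small protein that is activated by an E1 enzyme, handed to a ubiquitin-conjugating enzyme (E2) and attached to the target with the help of a ligase (E3). The marked protein is unfolded by the 19S regulatory particle of the proteasome, a ring of ATPases (PSMC) with a lid and base of other subunits (PSMD), and cut in the 20S core, a barrel of alpha rings (PSMA) and beta rings (PSMB). Under interferon, the catalytic subunits PSMB5, PSMB6 and PSMB7 can be replaced by PSMB8, PSMB9 and PSMB10, and the activator of PSME1 and PSME2 can cap the barrel, which changes the peptides that are presented on class I molecules.

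A probe set was tested where its mean over the 12 arrays lay above the median of the arrays, a rule that does not use the groups. This kept 11998 probe sets, among them 74 of the 79 members, which stand for 65 of the 66 genes. The lowest value of a tested member on any array was 6.54. The 5 that were not tested were weak probe sets of PSMC5, UBE2B, UBE2D4 and UBE2H, each of which has a second, brighter probe set that was tested, and the only probe set of UBE2E2. A member passed at a Benjamini-Hochberg adjusted p under 0.05 in limma, adjusted over all 11998 probe sets of a comparison, and every error given after ± with a difference is a standard error. Levels were compared between groups only within a probe set. Where a gene had 2 probe sets, the brighter one is the one with the higher mean signal, which serves only to tell them apart, since brightness also depends on the probes.

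The array medians lay between 6.64 and 6.77. The keratin KRT18, a marker of epithelium, was bright in every group (means of 11.39 to 11.61), while the markers of endothelium, smooth muscle and red blood cells stayed too dim to be tested, and none of the markers was listed at 0. The average level of the 3 neutrophil markers, S100A8, S100A9 and S100A12, was 6.55 to 7.19 in the HR3 pools, 7.14 to 8.14 in LR3, 10.63 to 11.33 in HR7 and 9.69 to 10.38 in LR7, and 3 of 3 rose with the day. Of 8 stroma markers 3 fell and none rose, with average levels of 8.59 to 9.91 at day 3 and 7.89 to 9.62 at day 7. Of 5 T and NK cell markers tested 4 fell, of 7 epithelium markers 3 fell, and of 4 macrophage markers 2 rose. The part of such cell type differences in the day changes of the members, and in their differences between HR and LR, was not tested.

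The first comparison asked which members change between day 3 and day 7, taking HR and LR together. Most did not pass. Of the 74 tested members 19 passed, 10 of them higher and 9 lower at day 7, which is 25.7% of the members beside a background of 44.7% of all probe sets tested (20.6% higher and 24.1% lower). Before adjustment 30 of 74 had a p under 0.05 (40.5%), beside 52.9% of all, and the 6 pools of day 7 did not overlap with the 6 of day 3 in 8 members (10.8%), beside 21.9% of all. Of the proteasome probe sets 7 of 45 passed (1 higher, 6 lower), which is 15.6%, and of the E2 probe sets 12 of 29 (9 higher, 3 lower), which is 41.4% and close to the background. The difference between these shares was not tested. The changes were small in both. The largest among the tested members was 0.51 on the log2 scale, a 1.43-fold fall of PSMD4, while probe sets over the whole array moved by up to 5.75. No tested member changed by more than 1 on the log2 scale, beside 5.44% of all probe sets, and 1 tested member changed by more than 0.5, beside 20.7%. The median size of the change was 0.14 in the members and 0.24 over all probe sets tested.

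**Figure D1:**
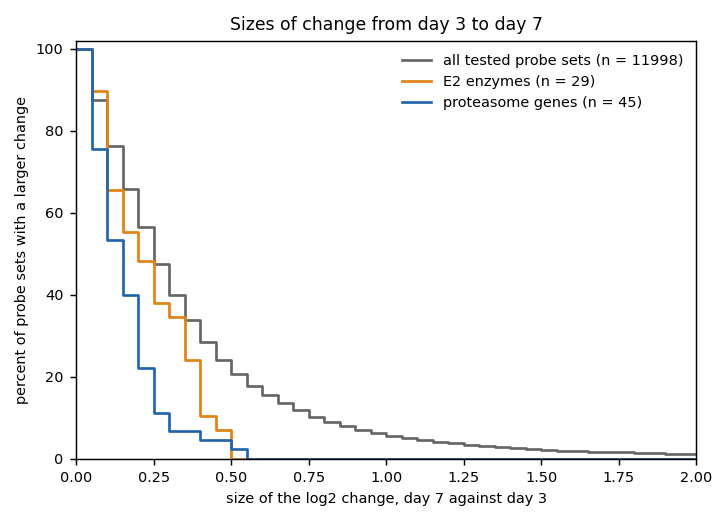
Size of the day 3 to day 7 change. The horizontal axis is the absolute log2 difference between day 7 and day 3 over both receptivity groups, and the vertical axis is the percent of probe sets with a larger one, for 45 proteasome probe sets, 29 E2 probe sets and all 11998 tested. The proteasome curve lies lowest and ends near 0.51, the E2 curve ends before 0.5, and the curve of all probe sets runs on beyond 1, with 5.44% still larger.

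The median half-width of the 95% interval of the day difference was 0.18 in the members and 0.21 over all probe sets tested. This interval lay within 0.5 of zero on either side for 60 of the 74 members (81.1%), beside 55.7% of all probe sets tested, a share that also depends on the size of the change. The standard deviation over all 12 arrays, which includes the day change, was under 0.2 in 58 of the 74 members (78.4%), beside 41.2% of all. Within groups, the median standard deviation between pools was 0.14 in the members and 0.17 over all probe sets.

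In the 20S core, the barrel that cuts proteins, 1 of 14 probe sets for 13 genes passed (7.14%, beside the 44.7% of all), which was PSMA5, a subunit of the alpha ring. Its level was 10.05, 10.18 and 10.16 in the HR3 pools, 9.84, 9.93 and 9.99 in HR7, 10.02, 10.33 and 10.09 in LR3, and 10.01, 9.88 and 9.90 in LR7. All day 7 pools lay below all day 3 pools, though LR3 pool 1 (10.02) and LR7 pool 1 (10.01) nearly met. The fall was 0.21 ± 0.07 (limma, adjusted p = 0.0315), and the call was lost in 7 of the 12 analyses that left out 1 pool (HR3 pools 2 and 3, HR7 pools 1 and 2, LR3 pool 2, LR7 pools 2 and 3), in which the difference was -0.22 to -0.17 (adjusted p = 0.0572 to 0.0724). None of the 8 probe sets of the constitutive beta ring passed in limma. Their differences ran from -0.19 for PSMB2 to 0.17 for PSMB5, with all intervals between -0.35 and 0.33. A single one, a PSMB2 probe set, lay under 0.05 before adjustment (limma, adjusted p = 0.0546).

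**Figure D2:**
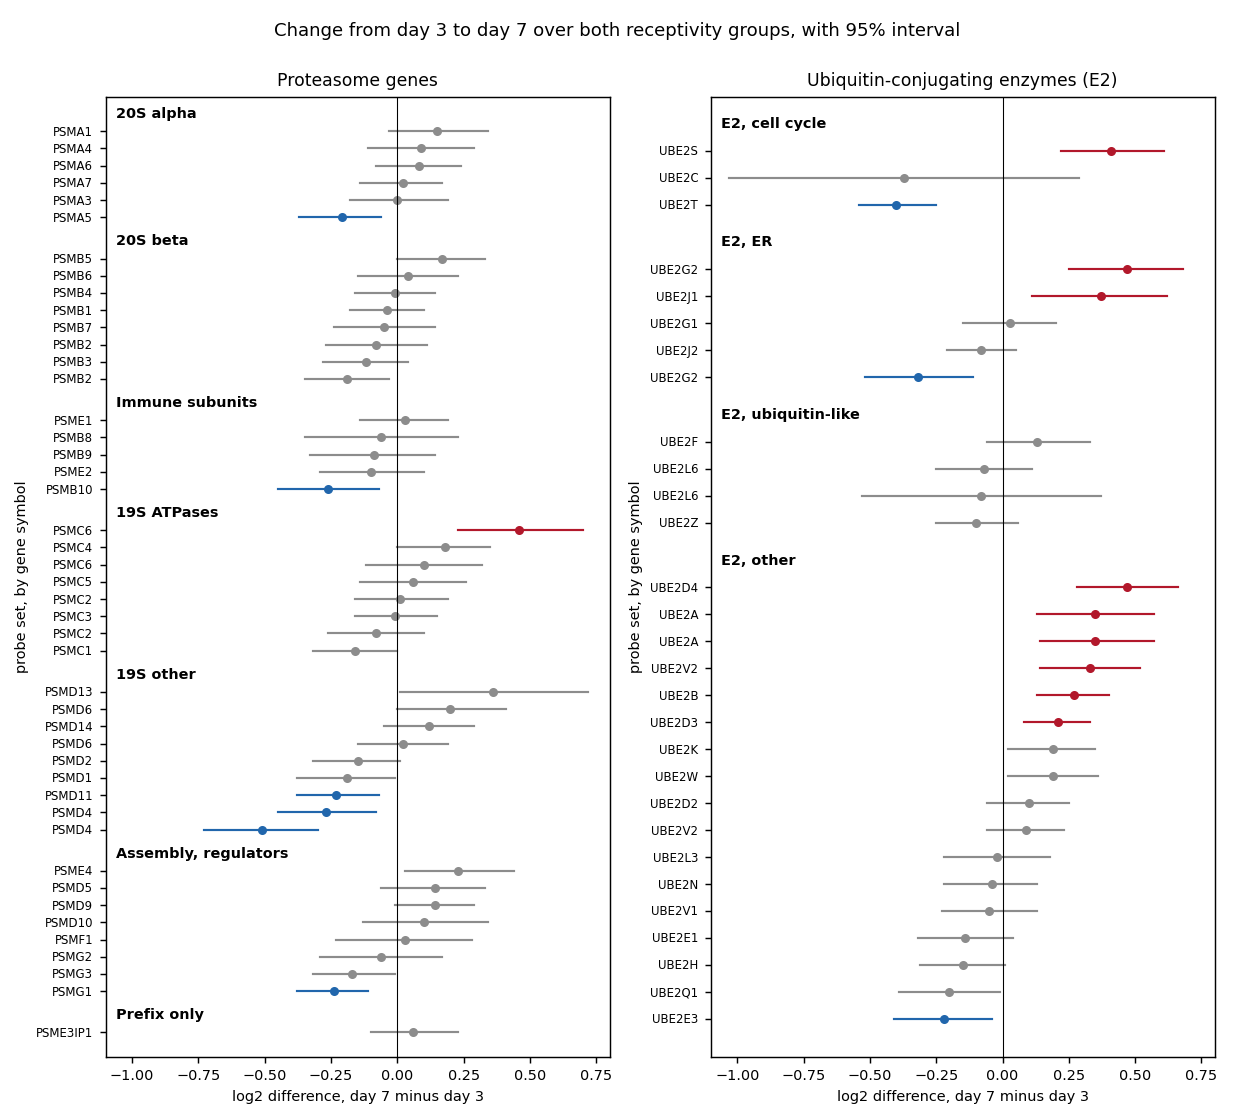
Day 7 minus day 3 for the 74 tested members. Each point is the log2 difference of 1 probe set over both receptivity groups and each line its 95% interval, on a shared horizontal axis, with proteasome genes on the left and E2 enzymes on the right by class. Red marks the 10 that rose, blue the 9 that fell and grey the others. In the 20S classes only PSMA5 is coloured, the widest line is that of UBE2C (-1.03 to 0.29), and UBE2G2 stands on both sides of zero.

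The immune subunits moved little. Of the 5 genes 1 passed (20%, beside 44.7% of all probe sets tested), which was PSMB10, the inducible counterpart of PSMB7. Its level was 10.19, 10.37 and 10.29 in the HR3 pools, 10.04, 9.89 and 9.99 in HR7, 9.97, 10.33 and 10.11 in LR3, and 10.09, 9.75 and 9.94 in LR7. The HR pools of the 2 days did not overlap, while those of LR did. It fell by 0.26 ± 0.08 (limma, adjusted p = 0.0267), and the call was lost without pool 2 of HR3, HR7, LR3 or LR7, with differences of -0.24 to -0.21 (adjusted p = 0.0593 to 0.064).

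PSMB8, the counterpart of PSMB5, was at 10.02, 10.32 and 10.30 in the HR3 pools, 10.15, 9.96 and 10.08 in HR7, 9.66, 10.34 and 10.05 in LR3, and 9.95, 9.78 and 10.41 in LR7. The LR pools were spread over a range that held all the HR pools, and the day difference was -0.06 (95% interval -0.35 to 0.23). PSMB9, the counterpart of PSMB6, was at 10.09, 10.21 and 10.16 in HR3, 10.26, 9.99 and 10.15 in HR7, 9.96, 10.38 and 10.49 in LR3, and 10, 9.97 and 10.36 in LR7. Here too the LR pools were the wider ones, with a day difference of -0.09 (-0.33 to 0.14).

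PSME1 and PSME2 encode the alpha and beta subunits of the activator cap. PSME1 was at 11.63, 11.65 and 11.58 in HR3, 11.72, 11.55 and 11.60 in HR7, 11.45, 11.74 and 11.41 in LR3, and 11.65, 11.47 and 11.63 in LR7, with a day difference of 0.03 (-0.14 to 0.19). PSME2 was at 9.98, 10.16 and 10.18 in HR3, 9.96, 9.95 and 10.06 in HR7, 10.04, 10.18 and 10.22 in LR3, and 10.11, 9.81 and 10.30 in LR7, with a day difference of -0.10 (-0.29 to 0.10). All 4 groups overlapped in both genes.

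The catalytic subunits that the immune ones replace did not pass either. The day difference was 0.17 (0.00 to 0.33) for PSMB5, the chymotrypsin-like subunit, whose HR7 pools were all at 10.56 and whose LR3 pools were at 10.29, 10.56 and 10.16. It was 0.04 (-0.15 to 0.23) for PSMB6, the caspase-like subunit, and -0.05 (-0.24 to 0.14) for PSMB7, the trypsin-like subunit. The difference between an immune subunit and its constitutive counterpart was not tested.

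**Figure D3:**
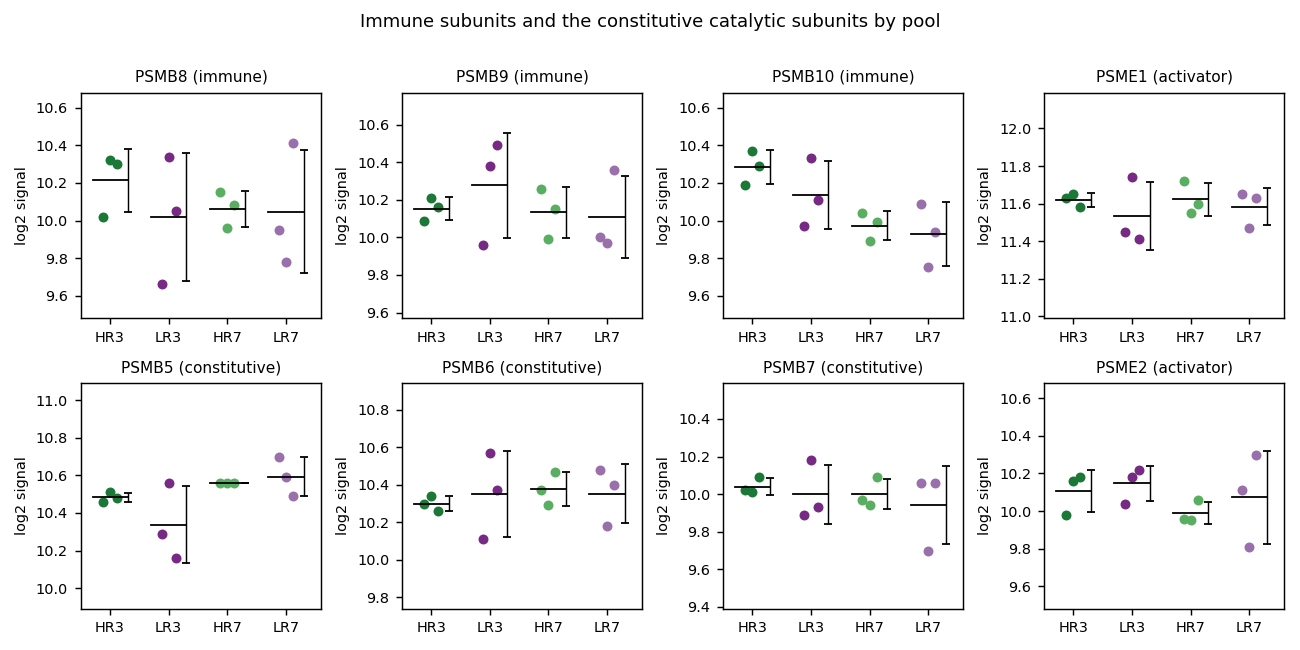
Immune and constitutive catalytic subunits by pool. Each panel shows the deposited log2 signal of 1 probe set in the 3 pools of HR3, LR3, HR7 and LR7 (points), with the group mean (line) and SD (bar), on axes of equal length that do not start at zero. PSMB10 is lower in HR7 (9.89 to 10.04) than in HR3 (10.19 to 10.37), the groups of the other panels overlap apart from the HR days of PSMB5, and the LR bars are mostly the longest.

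In the RefSeq annotation of the assembly ARS-UCD2.0, PSMB8 and PSMB9 lie on either side of TAP1, in the class II region, and PSME1 and PSME2 lie on either side of EMC9. Over the 12 arrays, after the group means were taken out, the 5 immune subunits rose and fell together with a mean pairwise correlation of 0.64. It was 0.52 over the 20S core, 0.34 over the 19S particle, 0.10 over the E2 enzymes and 0.04 over all probe sets tested. These 12 arrays share a labelling and a scaling, so the values are a description. Within LR3, the mean level of the 5 immune subunits was 10.22 in pool 1 and 10.59 in pool 2, and that of the 20S core 10.45 and 10.71, the largest gap within any group for the core. The mean over all probe sets tested ran the same way, at 8.62 in pool 1 and 8.73 in pool 2, and the part of this array-wide shift was not tested.

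In the 19S particle 4 of 17 probe sets passed (23.5%, beside 44.7% of all probe sets tested). PSMD4, a ubiquitin receptor in the base of the particle, fell in both of its probe sets. The brighter one carries the suffix _s_at, for probes shared by more than 1 transcript, as do the brighter PSMB2 and dimmer PSMC2 probe sets. It had the largest fall among the 74 tested members. It was at 10.15, 10.20 and 9.75 in HR3, 9.38, 9.35 and 9.70 in HR7, 10.11, 10.04 and 10.28 in LR3, and 9.66, 9.64 and 9.72 in LR7. All 6 pools of day 7 lay below all 6 pools of day 3. It fell by 0.51 ± 0.10 (limma, adjusted p = 0.0015), and by 0.56 in HR (adjusted p = 0.0133) and 0.47 in LR (adjusted p = 0.027). Over both groups the call was kept whichever pool was left out. In HR it was lost without pool 2 of HR3 or HR7 (-0.47 and -0.49, adjusted p = 0.057 and 0.0577), and in LR without pools 1 or 3 of LR3 or 1 or 2 of LR7 (-0.49 to -0.40, adjusted p = 0.0565 to 0.0767).

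The other PSMD4 probe set fell by 0.27 ± 0.09 (limma, adjusted p = 0.0272), from 9.55, 9.83 and 9.35 in HR3 and 9.42, 9.46 and 9.54 in LR3 to 9.09, 9.08 and 9.30 in HR7 and 9.31, 9.34 and 9.44 in LR7. Only the HR pools of the 2 days were apart. This call was lost without HR3 pool 2, HR7 pools 1 or 2, LR3 pool 3 or LR7 pools 1 or 2 (differences of -0.26 to -0.20, adjusted p = 0.0502 to 0.0639).

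PSMD11, a subunit of the lid, fell by 0.23 ± 0.07 (limma, adjusted p = 0.0224). Its pools were at 10.75, 10.79 and 10.55 in HR3, 10.38, 10.37 and 10.47 in HR7, 10.53, 10.76 and 10.62 in LR3, and 10.50, 10.53 and 10.40 in LR7, apart in HR and touching in LR. Without pool 2 of HR3 or HR7 the call was lost (differences of -0.20 and -0.22, adjusted p = 0.0589 and 0.0513).

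PSMC6, an ATPase of the ring, was the proteasome gene that rose. Its brighter probe set was at 10.01, 9.90 and 9.98 in HR3, 10.35, 10.50 and 10.53 in HR7, 10.30, 10.18 and 9.89 in LR3, and 10.67, 10.79 and 10.20 in LR7. The HR pools of the 2 days were apart, and LR7 pool 3 lay below LR3 pool 1. The rise was 0.46 ± 0.11 (limma, adjusted p = 0.00501). The second probe set of PSMC6 differed by 0.10 (95% interval -0.12 to 0.32) and did not pass, so that 1 of the 2 carried the call. The other 5 ATPases ranged from -0.16 for PSMC1 to 0.18 for PSMC4, and none passed.

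Among the chaperones and regulators of the proteasome 1 of 8 passed (12.5%, beside 44.7% of all probe sets tested). PSMG1, part of a chaperone that builds the alpha ring, was at 10.56, 10.51 and 10.51 in HR3, 10.21, 10.22 and 10.29 in HR7, 10.53, 10.66 and 10.49 in LR3, and 10.39, 10.29 and 10.39 in LR7. Every day 7 pool lay below every day 3 pool. It fell by 0.24 ± 0.06 (limma, adjusted p = 0.00657), and the call was kept in all 24 alternatives in which it was tested. Its partner PSMG2 differed by -0.06 (-0.29 to 0.17), and PSME4, another activator of the core, by 0.23 (0.03 to 0.44, adjusted p = 0.0645).

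The E2 enzymes held 9 of the 10 rises. This is 31% of the 29 E2 probe sets tested, beside 20.6% of all, while 10.3% fell, beside 24.1% of all. The 9 count both probe sets of UBE2A and 1 of UBE2G2, whose other probe set fell. The difference in these shares was not tested. UBE2D4, a broad partner of many ligases, was at 6.81, 6.80 and 6.72 in HR3, 7.08, 7.30 and 7.49 in HR7, 6.67, 6.90 and 7.08 in LR3, and 7.35, 7.28 and 7.30 in LR7. The days were apart within HR and within LR. It rose by 0.47 ± 0.09, which is 1.39-fold (limma, adjusted p = 0.00147), and kept this call in all 23 alternatives in which it was tested. UBE2D3, a close relative that also serves many ligases, rose by 0.21 ± 0.06 (adjusted p = 0.0129), with day 3 pools of 10.85 to 11.07 and day 7 pools of 11.10 to 11.25 that did not overlap. UBE2D2 did not pass (0.10, -0.06 to 0.25).

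UBE2A and UBE2B, a pair of closely related enzymes of DNA damage tolerance and histone ubiquitination, both rose. The brighter probe set of UBE2A was at 8.02, 8.22 and 7.92 in HR3, 8.36, 8.32 and 8.47 in HR7, 7.75, 8.06 and 8.29 in LR3, and 8.26, 8.43 and 8.54 in LR7. Each of its 2 probe sets rose by 0.35 ± 0.10 (limma, adjusted p = 0.0134 and 0.0157). UBE2B rose by 0.27 ± 0.06 (adjusted p = 0.00449), from 10.38 to 10.51 over the 6 pools of day 3 to 10.59 to 10.78 over those of day 7, with no overlap. Its mean with the probe set that was too dim for the test did not pass (0.20, adjusted p = 0.056).

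UBE2V2 has no catalytic activity of its own and works with UBE2N in building ubiquitin chains. It rose by 0.33 ± 0.09 in its brighter probe set (limma, adjusted p = 0.0105). The pools were at 7.90, 8.10 and 7.98 in HR3, 8.18, 8.38 and 8.30 in HR7, 7.89, 8.19 and 7.88 in LR3, and 8.54, 8.17 and 8.34 in LR7. The second probe set differed by 0.09 (-0.06 to 0.23), and UBE2N itself by -0.04 (-0.22 to 0.13). UBE2E3, an enzyme with a long extension before its catalytic fold, fell by 0.22 ± 0.08 (adjusted p = 0.0493), a call that was lost in 9 of the 12 analyses without 1 pool (HR3 pools 1, 2 and 3, HR7 pools 1 and 2, LR3 pools 2 and 3, LR7 pools 1 and 2), where the difference was -0.24 to -0.18 (adjusted p = 0.0643 to 0.119). With the pool number as a replicate block it did not pass (-0.22, adjusted p = 0.0535).

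The enzymes of the cell cycle and of DNA repair went in different directions. UBE2T, the E2 of the Fanconi anaemia repair pathway, was at 8.91, 8.67 and 8.74 in HR3, 8.39, 8.31 and 8.47 in HR7, 8.84, 8.97 and 8.84 in LR3, and 8.45, 8.47 and 8.49 in LR7. All day 7 pools lay below all day 3 pools. It fell by 0.40 ± 0.07 (limma, adjusted p = 0.000693), by 0.38 in HR and 0.41 in LR, and over both groups this call was kept in all 25 alternatives.

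UBE2S, which lengthens ubiquitin chains for the anaphase-promoting complex, was at 7.91, 8.19 and 8.09 in HR3, 8.30, 8.36 and 8.36 in HR7, 8.01, 8.39 and 7.97 in LR3, and 8.78, 8.68 and 8.56 in LR7. All pools of day 7 were above those of day 3 within each receptivity group. It rose by 0.41 ± 0.09 (limma, adjusted p = 0.00311), and the call was kept in all 25 alternatives. UBE2C, which starts the chains on the same complex, was at 7.66, 7.18 and 7.96 in HR3, 7.29, 7.41 and 7.04 in HR7, 7.90, 8.72 and 6.69 in LR3, and 7.93, 6.85 and 7.39 in LR7. The LR3 pools alone spanned the values of every other group, and the day difference of -0.37 (-1.03 to 0.29, adjusted p = 0.342) was not detectable at this spread.

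**Figure D4:**
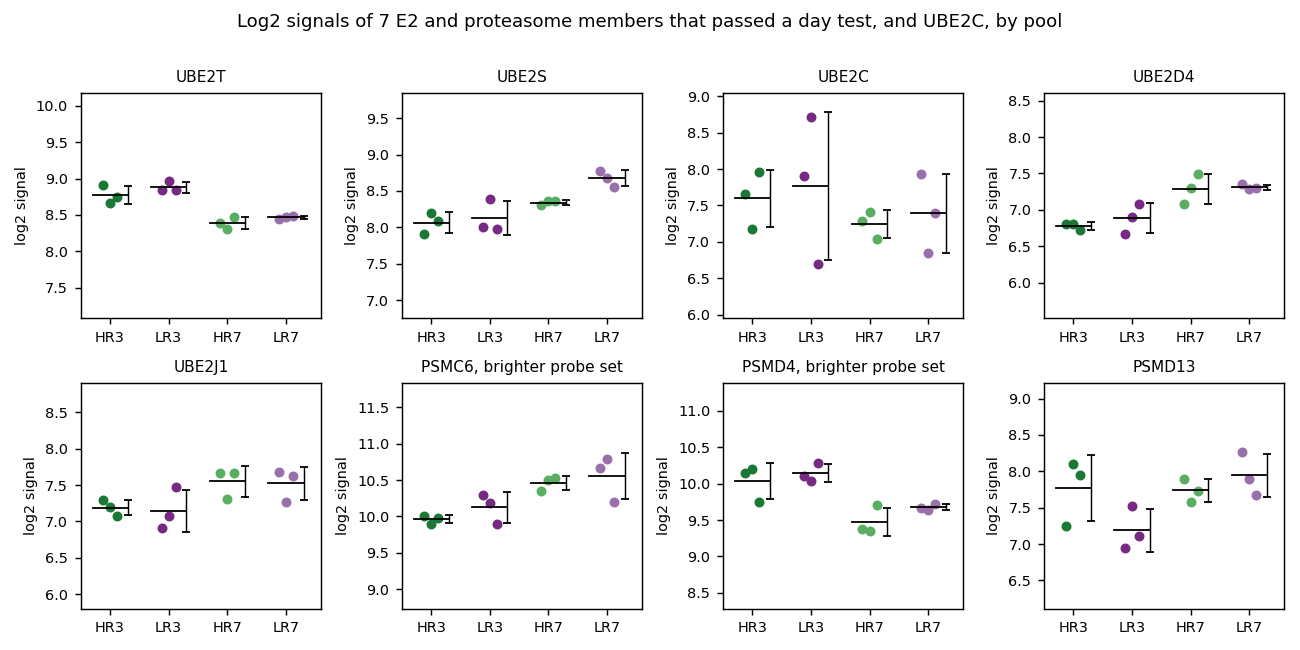
Members with a day call, and UBE2C, by pool. Each panel shows the deposited log2 signal of 1 probe set in the 3 pools of each group (points), the mean (line) and the SD (bar), on axes of equal length that do not start at zero. UBE2T and PSMD4 lie lower in all day 7 pools, UBE2S and UBE2D4 lie higher within each receptivity group, UBE2C is spread from 6.69 to 8.72 within LR3, and PSMD13 is low in LR3 (6.94 to 7.52).

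Of the E2 enzymes that act at the endoplasmic reticulum, 3 of 5 probe sets passed (60%, beside 44.7% of all probe sets tested). UBE2J1, which is anchored in its membrane, was at 7.29, 7.20 and 7.08 in HR3, 7.67, 7.31 and 7.67 in HR7, 6.91, 7.07 and 7.47 in LR3, and 7.68, 7.27 and 7.62 in LR7. It rose by 0.37 ± 0.12 (limma, adjusted p = 0.0237), with LR pools that overlapped between the days, and the call was lost without HR3 pool 3, HR7 pools 1 or 3, LR3 pools 1 or 2 or LR7 pool 1 (differences of 0.31 to 0.35, adjusted p = 0.0512 to 0.0582). UBE2J2, its relative, differed by -0.08 (-0.21 to 0.05).

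UBE2G2, the soluble E2 of the degradation of misfolded proteins, had 2 probe sets that passed in opposite directions. One rose by 0.47 ± 0.10 (limma, adjusted p = 0.0028), from 7.08, 7.04 and 6.91 in HR3 and 6.84, 7.19 and 7.25 in LR3 to 7.55, 7.60 and 7.44 in HR7 and 7.77, 7.39 and 7.35 in LR7. The brighter one fell by 0.32 ± 0.09 (adjusted p = 0.0157), from 8.23, 8.07 and 8.10 in HR3 and 7.99, 8.28 and 8.42 in LR3 to 7.86, 7.68 and 8.0 in HR7 and 7.83, 8.03 and 7.80 in LR7. The mean of both differed by 0.07 (adjusted p = 0.481), so no direction can be given for the gene. Of the 9 genes with both probe sets tested, 7 had the same sign in both and 2 did not (UBE2G2 and PSMC2), and in 3 genes both passed.

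**Figure D5:**
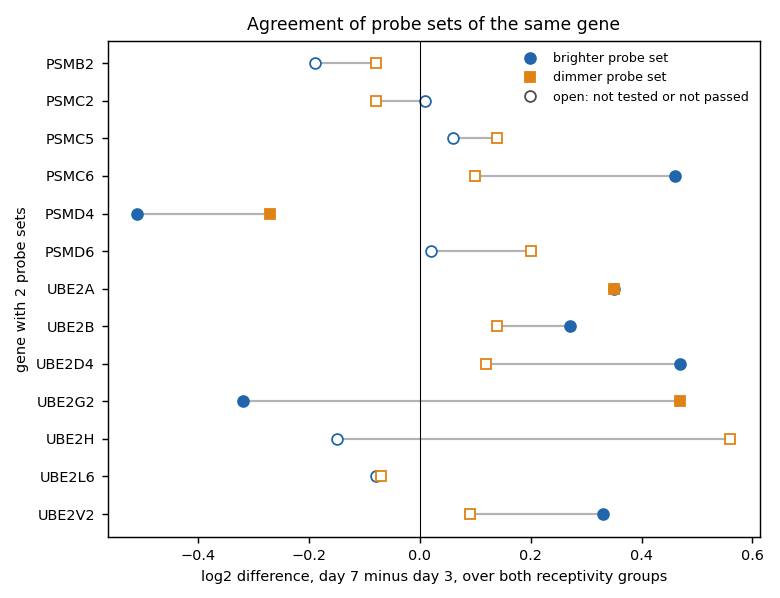
Genes with 2 probe sets. For each of the 13 genes, the log2 difference between day 7 and day 3 over both receptivity groups is shown for the brighter (circle) and the dimmer (square) probe set, joined by a line, with filled symbols where a tested probe set passed and the difference without the filter for those not tested. The symbols of UBE2A coincide at 0.35, and those of UBE2G2 lie at -0.32 and 0.47.

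None of the 4 tested probe sets of the E2 enzymes for ubiquitin-like proteins passed in limma (beside 44.7% of all), and 0 had an unadjusted p under 0.05 (beside 52.9%). UBE2L6, the E2 of the interferon-induced modifier ISG15, differed by -0.07 (-0.25 to 0.11) in a probe set with pools of 6.54 to 7.04, and by -0.08 (-0.53 to 0.37) in a brighter one with pools of 6.70 to 8.14. Of the 5 listed genes of the ISG15 pathway 3 were tested and 2 passed. The modifier ISG15 rose by 1.78 ± 0.27 (adjusted p = 0.000425), with group means of 7.81 in HR3, 7.87 in LR3, 9.65 in HR7 and 9.58 in LR7, and its activating enzyme UBA7 rose by 0.78 ± 0.20 (adjusted p = 0.00907), while the protease USP18 did not pass (0.21). UBE2F and UBE2Z differed by 0.13 and -0.10.

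Of the 5 members that were too dim for the test, 2 passed in a fit without the filter, in which 26.5% of all probe sets passed. UBE2E2, a relative of UBE2E3 with 1 probe set, was at 6.09, 5.58 and 5.99 in HR3, 4.77, 4.69 and 4.92 in HR7, 6.24, 5.73 and 5.27 in LR3, and 5.12, 4.62 and 4.99 in LR7. All day 7 pools lay below all day 3 pools, and it fell by 0.96 ± 0.17 in that fit (limma, adjusted p = 0.00309), at levels below the median of the arrays. The dim probe set of UBE2H rose by 0.56 ± 0.16 (adjusted p = 0.0296), while the bright one, which was tested, differed by -0.15 (-0.31 to 0.01).

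Genes that work with the members were read from lists. Their counts stand beside the 44.7% of all probe sets that passed in this comparison (20.6% higher and 24.1% lower). Of 12 genes of degradation at the endoplasmic reticulum 5 rose and none fell. The share that passed is near the 44.7%, but all were rises, and this split of directions was not tested. The median difference was 0.19 beside -0.04 over all probe sets tested. The ligase SYVN1, which accepts ubiquitin from UBE2G2 and UBE2J1, rose by 1.47 ± 0.16 (limma, adjusted p = 4.32e-05). The rhomboid-like DERL3 rose by 0.93 ± 0.23 and the membrane protein SELENOS by 0.36 ± 0.07 (adjusted p = 0.00719 and 0.00146). Of 8 genes that load peptides on class I molecules 2 rose, the chaperone CALR by 1.0 ± 0.23 and the oxidoreductase PDIA3 by 0.33 ± 0.11 (adjusted p = 0.00441 and 0.0252). The transporter subunits TAP1 (-0.05 ± 0.13) and TAP2 (0.00 ± 0.13), whose cargo the immune subunits make, did not pass.

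Of 10 partners of the proteasome 2 rose and 1 fell. The assembly factor POMP rose by 0.35 ± 0.07 (limma, adjusted p = 0.00235), with group means of 11.05, 10.94, 11.37 and 11.33 in HR3, LR3, HR7 and LR7, and the deubiquitinase USP14 by 0.30 ± 0.10 (adjusted p = 0.025). The shuttle factor UBQLN4 fell by 0.38 ± 0.09 (adjusted p = 0.00628). The transcription factor NFE2L1, which drives proteasome genes, differed by -0.10 ± 0.08 and did not pass. Of 7 activating enzymes 1 rose, the UBA7 given above, and 1 fell, NAE1 of the NEDD8 pathway, by 0.33 ± 0.07 (adjusted p = 0.0034).

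The anaphase-promoting complex, the ligase served by UBE2C and UBE2S, had 2 rises and 3 falls among 11 genes tested. This share is near the 44.7% of all probe sets tested. ANAPC11, which docks the E2, rose by 0.31 ± 0.07 and ANAPC5 fell by 0.54 ± 0.09 (limma, adjusted p = 0.00397 and 0.000818). Of 4 proliferation genes tested 1 rose and 2 fell. The cyclin CCNB1, a target of the complex, rose by 2.75 ± 0.31 (adjusted p = 5.70e-05), while the replication factors MCM7 and PCNA fell by 0.96 ± 0.11 and 0.57 ± 0.12 (adjusted p = 5.24e-05 and 0.00259).

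Within the receptive groups alone, 7 of 74 members passed between day 3 and day 7 (3 higher, 4 lower), which is 9.46% beside 24.7% of all probe sets tested. They were the rising PSMC6, UBE2D4 and UBE2G2, and the falling UBE2T, PSMG1 and both probe sets of PSMD4. The count fell to 1 without HR7 pool 2, and to 3 without HR3 pool 2 or HR7 pool 1 and 4 without HR3 pool 1 or HR7 pool 3. The calls of PSMC6 and PSMG1 were lost whichever of the 6 HR pools was left out (0.46 to 0.55, adjusted p = 0.0533 to 0.101, and -0.31 to -0.27, adjusted p = 0.0541 to 0.0909). UBE2T lost its call without HR7 pool 2 (-0.34, adjusted p = 0.057) and UBE2D4 without HR7 pool 3 (0.41, adjusted p = 0.051). UBE2G2 lost it without HR3 pool 3 or HR7 pools 1 or 2 (0.47 to 0.51, adjusted p = 0.0534 to 0.068), and the dimmer PSMD4 probe set without pools 1 or 2 of HR3 or HR7 (-0.43 to -0.29, adjusted p = 0.058 to 0.111). With the pool number as a replicate block the call of PSMG1 was lost (adjusted p = 0.0542), and with the block and only the HR arrays those of PSMG1, UBE2T and both probe sets of PSMD4 were lost at the same differences (adjusted p = 0.0975, 0.0571, 0.0791 and 0.108). Groups did not overlap in 31 of the 74 members (41.9%), beside 46.7% of all.

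Within the non receptive groups, 8 of 74 passed (6 higher, 2 lower), which is 10.8% beside 26.5% of all. UBE2S rose by 0.55 (limma, adjusted p = 0.009), UBE2D4 by 0.43, UBE2G2 by 0.41, UBE2B by 0.31 and UBE2D3 by 0.29, while UBE2T fell by 0.41 and PSMD4 by 0.47. With the pool number as a replicate block UBE2G2 did not pass (0.41, adjusted p = 0.0709). With the block and only the LR arrays the calls of UBE2G2, UBE2D4, UBE2B and UBE2D3 were lost at the same differences (adjusted p = 0.162, 0.0655, 0.0787 and 0.0956), and PSMC6 passed (0.43, adjusted p = 0.0481). The count was 2 without LR7 pool 1, and 5 without LR3 pool 1 or LR7 pool 2. UBE2B lost its call without LR3 pool 2 or LR7 pool 1 (0.28 and 0.29, adjusted p = 0.0624 and 0.0737) and UBE2D3 without pool 1 of LR3 or LR7 (0.28 and 0.26, adjusted p = 0.0584 and 0.0841). UBE2D4 lost it without LR3 pools 1 or 2 or any LR7 pool (0.32 to 0.44, adjusted p = 0.0519 to 0.0969), and UBE2G2 without 10 of the 12 pools, all but LR3 pool 3 and LR7 pool 3 (0.28 to 0.47, adjusted p = 0.057 to 0.18). Those of UBE2S and UBE2T were kept. Groups did not overlap in 16 of the 74 members (21.6%), beside 37.5% of all. A measure of the labelling moved with the day in LR: the signal at the start of the spiked control transcript dap minus that at its end was -3.13, -2.66 and -2.86 in the LR3 pools and -1.50, -1.47 and -1.88 in LR7, while HR3 (-2.74, -1.39 and -1.32) and HR7 (-2.30, -1.77 and -1.84) overlapped. The same measure of a second control, thr, overlapped between the days in LR (-3.52, -3.54 and -4.35 in LR3, -2.37, -2.98 and -3.85 in LR7) and was not used as a covariate. With the dap value as a covariate, a fit chosen after seeing the data, no member passed in LR, beside 1.89% of all probe sets. Some differences in LR stayed near their size, with 0.31 for UBE2B, 0.38 for UBE2G2 and 0.25 for UBE2D3, and others shrank, with 0.34 for UBE2D4, -0.28 for UBE2T, -0.34 for PSMD4 and 0.28 for UBE2S. Over both groups the same covariate kept 11 of the 19 day calls, and those of UBE2A, UBE2V2, UBE2D3, UBE2E3, PSMD11, the dimmer PSMD4 and the brighter UBE2G2 probe sets were lost (adjusted p = 0.0781 to 0.151). Their differences hardly moved, with 0.33 and 0.31 for UBE2A, 0.19 for UBE2D3, -0.22 for UBE2E3, -0.23 for PSMD11, -0.27 for PSMD4 and -0.30 for UBE2G2, apart from UBE2V2 with 0.25 after 0.33.

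PSMD13, a subunit of the lid, passed in LR only. It was at 7.25, 8.10 and 7.95 in HR3, 7.90, 7.58 and 7.73 in HR7, 6.94, 7.52 and 7.11 in LR3, and 8.26, 7.90 and 7.67 in LR7. It rose by 0.75 ± 0.23 in LR (limma, adjusted p = 0.0317) and differed by -0.03 ± 0.23 in HR. The difference between these changes was -0.78 ± 0.32, with an unadjusted p of 0.0334 and an adjusted p of 0.999 in limma, so it did not pass. The LR call was lost without LR3 pools 1 or 3 or LR7 pools 1 or 2 (0.59 to 0.78, adjusted p = 0.0643 to 0.123). With the dap value as a covariate the difference in LR was 0.10 (adjusted p = 0.882).

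The next comparisons asked whether members differ with receptivity, and none passed. At day 3 the count was 0 of 74 in limma, beside 0% of all probe sets tested, with 4 members (5.41%) at an unadjusted p under 0.05 beside 7.22% of all, and 4 in an ordinary linear model beside 7.28% of all. At day 7 it was 0 of 74 beside 0.025% of all, with 1 member at an unadjusted p under 0.05 beside 3.58% of all, and 2 in the ordinary model beside 3.43%. Over both days it was 0 of 74 beside 0.00833%, with 3 unadjusted beside 6.94% of all, and 6 (8.11%) in the ordinary model beside 7.04%. The interaction of receptivity and day gave 0 of 74 beside 0%, with 1 unadjusted (PSMD13) beside 3.47% of all, and 2 in the ordinary model beside 3.12%. None of these 4 counts left 0 in any of the alternatives run.

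The intervals bound what could have been missed. The 95% interval of HR minus LR lay within 0.5 of zero on either side for 68 of the 74 members at day 3, for 70 at day 7 and for 71 when the days were joined. These are 91.9%, 94.6% and 95.9% of the members, beside 62.4%, 69.3% and 85% of all probe sets tested. For the 5 immune subunits, all intervals together ran from -0.45 to 0.61 at day 3 and from -0.40 to 0.43 at day 7. PSMB8 had the widest, with HR3 above LR3 by 0.20 (-0.22 to 0.61). The interval of UBE2C, from -1.10 to 0.76 at day 3, leaves room for a change of more than 2-fold.

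At day 3, the member with the lowest p was the dimmer of the UBE2V2 probe sets. It was at 7.88, 7.84 and 7.80 in HR3 and at 8.25, 8.15 and 8.16 in LR3, with no overlap, and differed by -0.35 ± 0.09 (limma, unadjusted p = 0.00257, adjusted p = 0.623). At day 7 it was at 7.99, 8.21 and 7.99 in HR and at 8.10, 8.12 and 8.18 in LR, which overlap. The brighter UBE2V2 probe set differed by 0.01 ± 0.12 at day 3.

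PSMA1 of the alpha ring was at 9.78, 9.64 and 9.53 in HR3 and at 10, 10.08 and 9.79 in LR3 (-0.31 ± 0.12, limma, adjusted p = 0.652), and PSMB2 of the beta ring at 10.13, 10.18 and 10.13 against 10.21, 10.43 and 10.48 (-0.23 ± 0.10, adjusted p = 0.688). The dimmer PSMC2 probe set (-0.20) and the brighter UBE2L6 probe set (-0.43) followed. The other probe sets of these genes went the other way, with 0.12 for PSMC2 and 0.15 for UBE2L6. In the other direction stood PSMD13 (0.58 ± 0.23, adjusted p = 0.661), UBE2D3 (0.15), PSMC4 (0.19), PSMA3 (0.17) and PSMB5 (0.15). The groups did not overlap in 6 of the 74 members (8.11%), beside 10.2% of all probe sets.

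At day 7, UBE2S was at 8.30, 8.36 and 8.36 in HR7 and at 8.78, 8.68 and 8.56 in LR7, with no overlap. The difference of -0.33 ± 0.13 had an unadjusted p of 0.0212 and did not pass (limma, adjusted p = 0.998). PSMD4 (-0.21 and -0.20 in its 2 probe sets), PSMC3 (-0.15) and PSMC1 (-0.15) came next among the lower ones. Of the higher ones, UBE2H (0.16), the dimmer probe sets of PSMD6 (0.13) and UBE2L6 (0.12), PSMA6 (0.10) and PSMD5 (0.10) had the lowest p. The groups did not overlap in 3 of the 74 members (4.05%), beside 7.74% of all.

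Over both days the 3 members with an unadjusted p under 0.05 were all lower in HR. They were the dimmer UBE2V2 probe set (-0.21 ± 0.06, limma, adjusted p = 0.575), PSMA1 (-0.20 ± 0.09, adjusted p = 0.709) and UBE2S (-0.20 ± 0.09, adjusted p = 0.711). PSMB2 (-0.13) and the dimmer PSMC2 probe set (-0.14) followed. On the higher side stood UBE2H (0.14), the dimmer UBE2L6 probe set (0.13), PSMA6 (0.10), PSMA3 (0.10) and UBE2D3 (0.07). The brighter probe sets of PSMC2 (0.07) and UBE2L6 (-0.21) went the other way. In the interaction, PSMD13 (-0.78) was followed by PSMC4 (-0.29), PSMD4 (-0.31), PSMC3 (-0.23) and UBE2S (-0.27) below zero and by UBE2V2 (0.28), PSMB2 (0.20), PSMA1 (0.22), UBE2L6 (0.45) and PSMC2 (0.12) above it, all at an adjusted p of 0.999. These values are of the dimmer probe sets of PSMD4, UBE2V2 and PSMC2 and of the brighter one of UBE2L6. The brighter PSMC2 probe set was at -0.11. The other probe sets of UBE2V2 and UBE2L6 also lay below zero. From day 3 to day 7 the brighter UBE2V2 mean went from 7.99 to 8.29 in HR and from 7.99 to 8.35 in LR. The dimmer UBE2L6 mean went from 6.89 to 6.81 in HR and from 6.74 to 6.69 in LR.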

How the data were processed

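Per the submitters' processing notes, arrays were scanned in GCOS 1.1.1 and summarised with PLIER in Affymetrix Expression Console. The authors deposited log2 signals in 1 table of 12 arrays and 24128 entries, with values from 0 to 14.07, which were used without further normalization. After 112 control probe sets were left out, 24016 remained, of which the platform annotation gave 13292 one gene symbol, 86 several and 10638 none. Each array's group was taken from its record. The members and the gene lists were chosen with earlier results of these data known.

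Probe sets whose mean over the 12 arrays, each value taken against its array median, was above 0 were tested in limma 3.58.1 under R 4.3.3, with 1 mean per group over all 12 arrays. Contrasts were day 7 against day 3 (both groups, HR, LR), HR against LR (day 3, day 7, both) and their interaction. P values were adjusted by Benjamini-Hochberg within each. The present calls of the study were not used here, and 3 pools per group limit the precision. Tables and plots were made in Python 3.11.15 with pandas 2.3.3, numpy 2.4.6 and matplotlib 3.10.9, and the fit was tested on simulated data.

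Members are named by a rule: the immune subunits and their counterparts, UBE2C, UBE2S and UBE2T always, up to 10 passing members per direction with the largest day change, and otherwise the 5 with the lowest p per direction. Members named outside it were chosen after their values were seen. Other genes come from lists of activating enzymes, proteasome partners, the anaphase-promoting complex, degradation at the endoplasmic reticulum, peptide loading, ISG15, proliferation and cell type markers. Of the B and plasma cell markers 1 was tested and it did not pass.

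Pools of the 4 groups carry the numbers 1 to 3. Whether a number marks shared heifers is not given in the sources used here. Same-numbered pools deviated together between LR3 and LR7 (correlations of 0.209, 0.203 and 0.512 over probe sets) and between HR7 and LR7 (0.118, 0.113 and 0.423). Between HR3 and HR7 the correlations were of mixed sign (0.123, 0.120 and -0.044), and between HR3 and LR3 all were negative (-0.099, -0.074 and -0.455). Some pools with different numbers also deviated together, such as LR3 pool 1 with LR7 pool 2 (0.206) and HR7 pool 2 with LR7 pool 1 (0.319). Most other such pairs in LR3 with LR7 and HR7 with LR7 were negative. The group means of 3 pools were taken out first, so positive pairs push the others towards negative values. These signs therefore do not bear on pairing. HR7 and LR7 hold different heifers, so a shared number cannot mark pairing there. Whether LR3 and LR7 are paired was not settled by these values. Alternatives changed the filter, scaling, low signals, arrays in the fit, block, moderation, weights and probe sets per gene, or left out each pool in turn.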

Additional observations from a re-analysis of the deposited data

How the results depend on the processing

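For the day over both groups, 19 members passed. With the dap control as a covariate, chosen after seeing the data, 11 passed (14.9%, beside 29.5% of all probe sets), and with a filter after the study (SD over the arrays of at least 0.2, and all 3 pools of a group above the array median) 12 of the 16 members it kept passed (75%, beside 65.9% of all). Leaving out 1 pool gave 14 to 24. In HR, where 7 passed, array weights gave 16 (21.6%, beside 43.5% of all), the mean over probe sets of a gene 3 (4.69%, beside 24.6%) and the replicate block with only the groups compared 3 (4.05%, beside 21.6%). Leaving out 1 pool gave 1 to 8. In LR, where 8 passed, the dap covariate gave 0 (beside 1.89%), the mean over probe sets 4 (6.25%, beside 26.2%), no filter 2 (2.53%, beside 11.4%), only the groups compared 4 (5.41%, beside 15.7%) and the replicate block with only these groups 5 (6.76%, beside 21.7%). Leaving out 1 pool gave 2 to 9. With the pool number as a replicate block over all 12 arrays, 18 members passed for the day over both groups, 6 in HR, 7 in LR and 0 in each comparison that involves receptivity. The block ended 3 calls of named members in that fit, UBE2E3 over both groups, PSMG1 in HR (-0.29, adjusted p = 0.0542) and UBE2G2 in LR. The counts for HR against LR and for the interaction were 0 when 1 pool was left out. Centring each array on its median moved the split of the day calls from 10 higher and 9 lower to 15 higher and 8 lower among members, and from 46.1% to 52.6% higher among all calls. Of 4013 recomputed differences of named members, 3829 kept their side of the threshold, 148 lost and 35 gained a call, and 1 called value changed sign, the brighter probe set of UBE2G2, which became 0.07 as the mean over both probe sets. Of the 3829, 72 passed in neither setting and changed sign. The causes were not tested. Of the calls for the day over both groups, those of UBE2S, UBE2T, UBE2D4, PSMC6, PSMG1 and the brighter PSMD4 probe set were kept in every alternative in which they were tested. With no filter on low signals PSMA5, PSMB10, UBE2J1, UBE2E3 and the dimmer PSMD4 probe set did not pass, with the mean over probe sets UBE2B (0.20, adjusted p = 0.056) did not, with quantile normalization UBE2D3 did not, and UBE2E3 also lost its call after median centring and in the ordinary linear model. Signals are limited by background: 281 to 395 probe sets per array were listed at 0, none of them members.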
